A study of Mus musculus with 8 samples.

Results

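Long-term hematopoietic stem cells (LT-HSC) sorted as negative for the surface protein Dlk1 were described one by one from their messenger RNA, without comparison to Dlk1-positive cells. The cells came from bone marrow of untreated male C57BL/6J mice of 18 months, pooled over several bones. Marrow depleted of mature lineage cells was sorted as Lin- CD150+ CD48- CD34- Kit+ Sca1+ and Dlk1-, and single cells went into the wells of 384-well plates. In all, 4 libraries of 96 wells each were made with mCEL-Seq2, a plate method that reads the 3′ end of polyadenylated RNA and marks every molecule with its well and with a random tag (unique molecular identifier, UMI). By the table names, plate 5 held replicates 1 and 2, and plate 6 held replicates 3 and 4. No animal was named for a library, so the spread over the 4 libraries may be technical. The other 4 libraries of the series held Dlk1+ cells and were not compared here.

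A Dlk1- cell was a barcode numbered 97 or higher with at least 1000 summed transcripts. This rule kept 321 cells of the 570 barcodes that passed the same minimum in the whole series. Replicates 1 to 4 gave 96, 36, 95 and 94 cells. Replicate 2 stood apart in number, since 60 of its 96 wells stayed below the minimum, against 0 to 2 wells in the others.

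LT-HSC sit at the top of blood formation and renew the blood system after transplantation. Most of them rest outside the cell cycle in adult marrow. Transcription factors such as Hlf, Meis1, Mecom and Gata2 maintain the stem cell state, Kit receives signals from stem cell factor, and Procr, Slamf1 (CD150) and Ly6a (Sca-1) are surface proteins used to isolate the cells. With age, mouse HSC are known to carry more RNA of platelet genes such as Selp and Vwf.

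The median cell held 4595 to 5521 UMIs by library. With all UMIs, 1826 to 2045 genes were detected in the median cell. To compare cells, each one was thinned at random to 2000 UMIs, which 307 cells reached. At that equal depth the median cell of replicates 1 to 4 had 953, 942.5, 971.5 and 1072.5 genes. Replicate 4 was highest, and it was also the library with the lowest share of satellite-like transcripts described next. Summed over cells, the libraries resembled each other at a Pearson r of 0.82 to 0.90 over 8744 genes on a log scale (6 pairs of libraries). Of the barcode numbers used, 35 carried a cell in all 4 libraries. Cells with the same barcode number in 2 libraries had a median r of 0.0146 with each other, against -0.000898 for other pairs of cells.

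The 20 most abundant genes held 36.4%, 34.7%, 35.9% and 25.3% of the UMIs in replicates 1 to 4 (mean 33.1% ± 5.24, SD, n = 4 libraries). They included 2 repeat-derived predicted genes, 11 genes of the mitochondrial genome, the translation elongation factor Eef1a1, the ribosomal protein gene Rpl23, the nuclear noncoding RNA Malat1, prothymosin Ptma, actin Actb and the intronic transcript Gm29055. The first place was held by Gm10800, annotated at chr2:98666547-98667301 on the minus strand of GRCm38 (the same assembly as mm10). Gm10800 took 16.6%, 15.4%, 14.7% and 7.64% of UMIs in replicates 1 to 4. Gm26870, a long noncoding RNA at chr9:3000282-3038313 on the minus strand, followed with 6.88%, 7.72%, 5.99% and 3.21%. For both, replicate 4 was lowest and the other libraries lay close together.

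Both genes are models over mouse major satellite repeats, the DNA that fills the chromatin around mouse centromeres. Their sequences are shown because the 2 most abundant names of these cells share letters. The longest run common to a transcript of each was 99 bases, printed in capitals, with 20 bases of flank in lower case. It was found when Gm26870 was read as its reverse complement, so that the genes are annotated on opposite strands of the repeat:

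Gm10800: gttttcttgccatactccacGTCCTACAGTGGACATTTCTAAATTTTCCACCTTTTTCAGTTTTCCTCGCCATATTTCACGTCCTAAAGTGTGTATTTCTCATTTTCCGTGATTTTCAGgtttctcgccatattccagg

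Gm26870 (reverse complement): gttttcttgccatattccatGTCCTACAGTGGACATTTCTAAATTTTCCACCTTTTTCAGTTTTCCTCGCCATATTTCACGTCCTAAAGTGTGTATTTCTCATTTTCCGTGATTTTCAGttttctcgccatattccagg

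Of all 31-base words of these transcripts, 25.4% of those of Gm10800 also stood in Gm26870, always on the opposite strand. Reads from such repeats cannot be placed with certainty, so the split between these 2 names is uncertain and their sum is the safer value. The satellite-like list of 12 gene symbols had 5 with a row in these tables, and together they held 23.6%, 23.3%, 20.8% and 10.9% of UMIs (19.6% ± 5.96, SD, n = 4). Single cells spanned a wide range, from 1.46% to 56.4% in replicate 1, 5.53% to 69.2% in replicate 2, 3.51% to 71.2% in replicate 3 and 1.13% to 83.8% in replicate 4. The medians over cells were 22.2%, 21.4%, 17.7% and 8.15%. The number of different UMIs is limited, so the highest values of Gm10800 are compressed in UMIs. In the deposited transcript estimates, which correct for this, the list made up 22% ± 7.04.

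**Figure D1:**
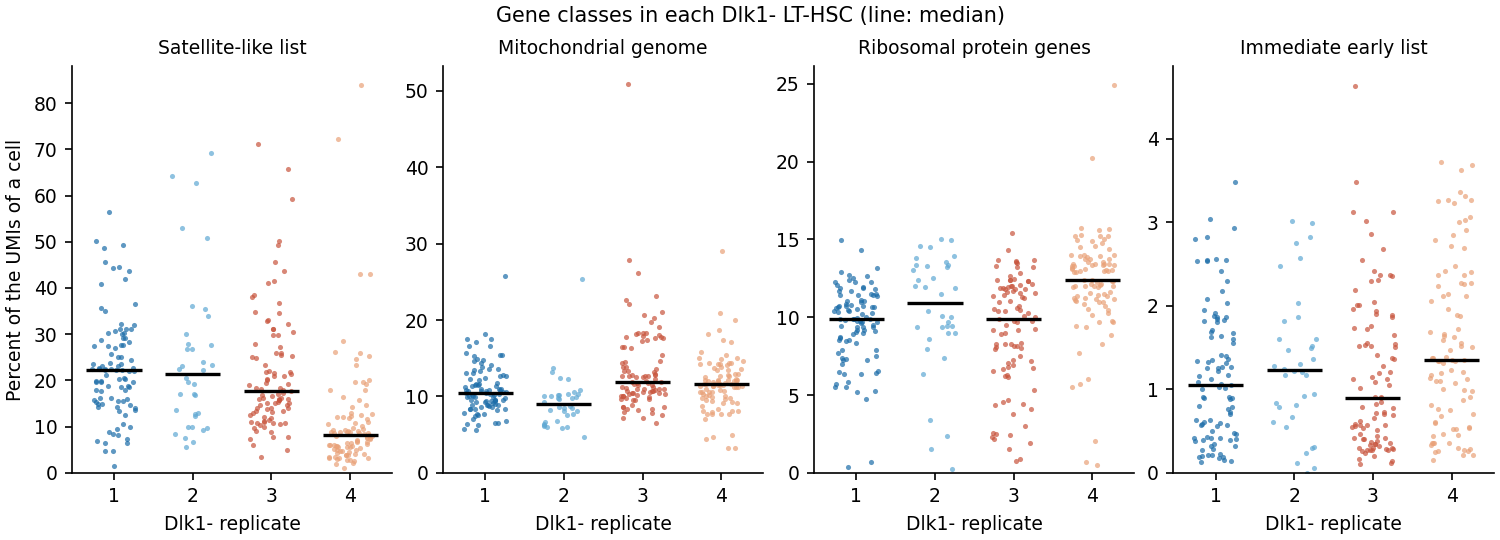
Percent of the UMIs of each of the 321 cells (y axis) that came from 4 gene classes, by Dlk1- replicate (x axis), with 1 point per cell and a line at the median. The satellite-like list has the widest spread and its lowest median, 8.15%, in replicate 4, while the ribosomal protein share lies near a median of 9.87% to 12.4% with a tail of cells close to 0.

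Mitochondrial transcripts, which encode subunits of the respiratory chain and the 2 mitochondrial ribosomal RNAs, held 10.5%, 9.07%, 12.7% and 11.6% of UMIs. mt-Rnr2, the large mitochondrial ribosomal RNA, led them with 3.30%, 2.60%, 4.71% and 4.4%. Among the protein-coding ones, mt-Co1, a subunit of cytochrome c oxidase, came first with 1.19%, 1.06%, 1.24% and 1.13%. mt-Rnr2 was lower in both libraries of plate 5 than in both of plate 6, while mt-Co1 lay between 1.06% and 1.24% in all 4. The 75 genes of ribosomal proteins took 9.64%, 10.6%, 9.61% and 12.4%.

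Satellite-like and ribosomal protein shares ran against each other across cells. Spearman's rho was -0.78, -0.74, -0.70 and -0.61 in replicates 1 to 4, over 96, 36, 95 and 94 cells. Both are shares of one total. When satellite-like UMIs were left out of the total of the ribosomal share, rho was -0.31, -0.37, -0.49 and -0.33. The sign was the same in every library. Depth moved little with the satellite-like share, at a rho of -0.19 to 0.11 with the UMIs of a cell. The mitochondrial share had a rho of -0.42, -0.28, -0.48 and -0.14 with the UMIs of a cell in replicates 1 to 4. For the ribosomal protein share it was -0.01 to 0.41.

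**Figure D2:**
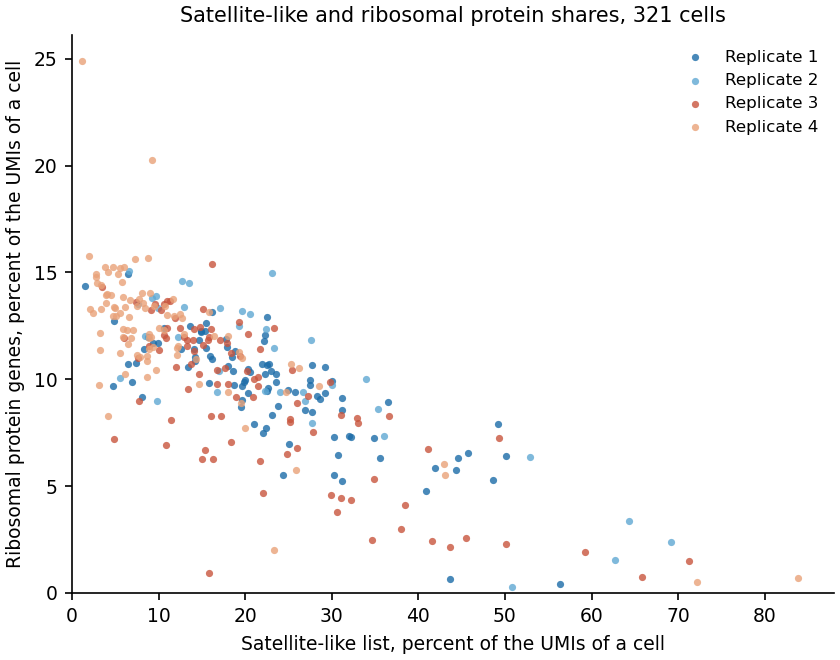
Satellite-like share (x axis) against ribosomal protein share (y axis), both in percent of the UMIs of a cell, 1 point for each of 321 cells, coloured by replicate. Cells with over 40% satellite-like UMIs lie at low ribosomal protein shares, and replicate 4 crowds at the upper left.

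A tail of 26 cells had under 5% of UMIs from ribosomal protein genes: 3, 4, 16 and 3 in replicates 1 to 4. Replicate 3 held most of them. Their median mitochondrial share was 17.1%, 8.24%, 18.1% and 8.03%, against 10.5%, 9.05%, 11.2% and 11.6% in the other cells, so it was higher in replicates 1 and 3 and lower in replicates 2 and 4. In replicate 3, which had enough of them to describe, their median satellite-like share was 38.2%, against 16% in its other 79 cells. They had a median of 2895 UMIs, against 4986. At 2000 UMIs they had 686 genes, against 989. Hlf was found in 78.6% of the 14 such cells that were deep enough, against 64.1% of the other 78. Meis1 was found in 42.9% of these 14 cells, against 46.2%. Both differences rest on few cells of this library. Of the 28 cells with over 40% satellite-like UMIs, 16 belonged to the same tail. These cells were kept, and the sets of genes that vary together are given with and without them.

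The 7 marker genes of LT-HSC were all detected, at very different shares of cells. At 2000 UMIs, Hlf, a leucine zipper factor of stem cells, was found in 57%, 73.5%, 66.3% and 62.5% of the cells of replicates 1 to 4 (64.8% ± 6.95). Meis1, a homeobox partner of Hox proteins, was found in 49.5%, 44.1%, 45.7% and 64.8% (51% ± 9.45). These were the most widely detected of the 7. Mecom, which encodes the zinc finger factor EVI1, was found in 11.8%, 20.6%, 28.3% and 23.9% (21.1% ± 6.96). Ly6a, the gene of Sca-1, was found in 23.7%, 17.6%, 18.5% and 21.6% (20.3% ± 2.79). Procr, the endothelial protein C receptor, was found in 10.8%, 26.5%, 17.4% and 23.9% (19.6% ± 7.04). The means of Mecom, Ly6a and Procr differed by less than the spread between libraries. Slamf1, the gene of CD150, was found in 14%, 11.8%, 8.70% and 10.2% (11.2% ± 2.25). Ctnnal1, an alpha-catenin-like protein, came last with 4.30%, 0%, 5.43% and 9.09% (4.71% ± 3.74). The 0 of 34 cells of replicate 2 allow up to 8.82% (3 counts) of cells with a UMI at this depth, which is no limit on cells that express the gene, and with all UMIs Ctnnal1 was found in 22.2% of its cells.

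Depth set these shares to a large degree. With all UMIs, the mean shares were 84% for Hlf, 76.7% for Meis1, 44.7% for Mecom, 39.3% for Procr, 38.2% for Ly6a, 25.4% for Slamf1 and 15.8% for Ctnnal1. For Procr the 95% Wilson intervals at 2000 UMIs ran from 5.95% to 18.7% in replicate 1 and from 14.6% to 43.1% in replicate 2, for counting error only, and they overlapped. On the 96 barcodes that were not used for sorted cells, Procr had 0 UMIs and Hlf 11 over the 4 libraries, against 180 and 863 in the cells. The median cell showed 2 of the 7 markers at 2000 UMIs in every library, and 3 to 4 with all UMIs. With all UMIs, 6 of the 321 cells showed none of the 7, and 0 showed all.

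**Figure D3:**
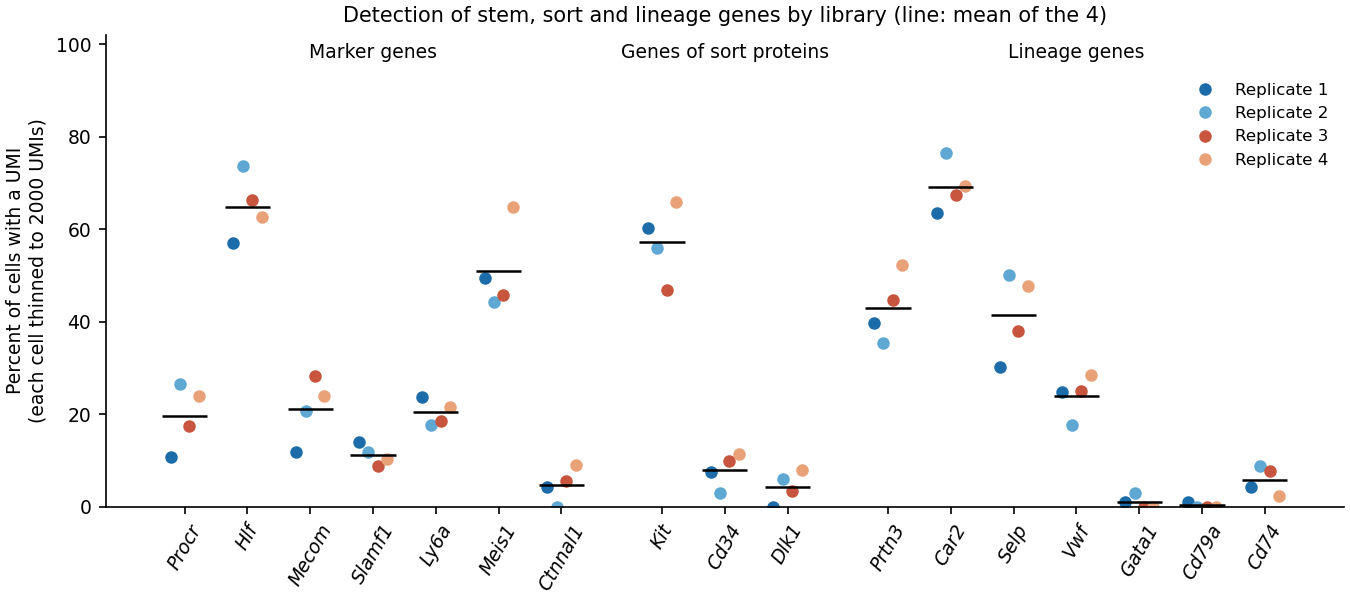
Percent of cells with at least 1 UMI of a gene after thinning each cell to 2000 UMIs (y axis), for the 7 markers, 3 genes of proteins used in the sort and 7 lineage genes (x axis). Points are the 4 Dlk1- libraries and lines their mean. Hlf, Meis1, Kit and Car2 have means over 50%, while Gata1 and Cd79a lie at 1.00% and 0.269%.

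Of the 26 genes of the HSC identity list, 20 were found in at least 10% of cells in each library at 2000 UMIs, as were 9.39% of all 16434 gene symbols. The highest was Lmo2, a bridging factor of the GATA and TAL1 complex, in 82.4% ± 2.41 of cells. Ifitm1, an interferon-induced membrane protein, followed with 75% ± 7.98. Msi2, an RNA-binding protein of stem cells, reached a mean of 54.7%, and Gata2 49.8% ± 10.2. Hoxb5 (9.37%) and Gfi1b (7.52%) were among the 6 members that did not reach 10% in every library. Of 35 HSC transcription factors, 25 reached 10% in each library. They included Zbtb20 in 57.2% and Myb in 40.8% of cells. Spi1, a myeloid and lymphoid factor, was found in 5.24% and Gfi1 in 2.86%.

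The genes of the sort proteins did not all follow the proteins. Kit was found in 60.2%, 55.9%, 46.7% and 65.9% of cells. Cd34, whose protein was gated out, was found in 7.53%, 2.94%, 9.78% and 11.4%, and in 22.3% ± 1.83 with all UMIs. Dlk1, an imprinted gene whose protein was also gated out, was found in 0% (0 of 93 cells, which allow up to 3.23% of cells with a UMI), 5.88%, 3.26% and 7.95%, with up to 5 UMIs in 1 cell of replicate 4. With all UMIs the Dlk1 shares were 2.08%, 5.56%, 4.21% and 10.6%. The cells held 43 UMIs of Dlk1. The 96 unused barcodes held 19, of which 18 lay on 10 barcodes that carried 25978 of their 40071 UMIs, and which were set apart after their values were seen. Cd48 had no row in the tables used here. Among 19 niche and cytokine receptors, 7 reached 10% in each library, led by Kit, as did 9.39% of all gene symbols. Cd27 was found in 27.9%, Itga6 in 24.2% and Itgb1 in 23.1%. Flt3, a receptor of multipotent progenitors, was found in 1.12%.

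Lineage lists held a few widely detected members. Among 15 megakaryocyte and platelet genes, 3 reached 10% in each library, as did 9.39% of all genes. Selp, P-selectin, was found in 30.1%, 50%, 38% and 47.7%, and Vwf, von Willebrand factor, in 24.7%, 17.6%, 25% and 28.4%. Sdpr, a protein of caveolae now named Cavin2, was found in 21.7% and Itgb3 in 17.3%. The platelet proteins Pf4 (4.46%), Gp9 (4.31%) and Ppbp (0%) were rare, where 0 of 307 cells allow up to 0.977% of cells with a UMI at this depth. Of 14 erythroid genes, 12 had a row and 1 reached 10% in each library, near the 9.39% of all genes. It was Car2, a carbonic anhydrase, with 63.4%, 76.5%, 67.4% and 69.3%. Gata1 was found in 1.00%, Klf1 in 0% and Hbb-bs in 2.19%. Hbb-bs had 20 UMIs in the cells and 2793 on the unused barcodes, of which 13 lay outside the 10 barcodes named above, so its level in the cells cannot be told from background.

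Of 17 myeloid genes, 9 had a row and 1 reached 10% in each library, again near the share of all genes. It was Prtn3, the neutrophil serine protease 3, with 39.8%, 35.3%, 44.6% and 52.3%. Its cells held at most 2 or 3 UMIs of it at equal depth. Csf3r, the receptor of granulocyte colony-stimulating factor, was found in 10.3% as a mean. S100a8 and Ngp were at 0%, while Mpo, Elane, Ctsg, Lyz2 and Csf1r had no row. No member with a row in the B cell (6 of 10 genes), T and NK cell (2 of 10), mast cell (2 of 7), stroma (8 of 10), endothelium (7 of 8) or liver (7 of 8) lists reached 10% in each library. The T and NK cell and mast cell lists thus rest on 2 genes each. Summed levels ranged over libraries from 17.3 to 45.6 UMIs per 1000000 (CPM) for B cells, 28.2 to 52.3 for T and NK cells, 0 to 6.37 for mast cells, 18.1 to 36.5 for stroma, 91.2 to 184.6 for endothelium and 4.56 to 14.9 for liver. The HSC identity list, which is larger at 26 genes, summed to 6717, 6596, 6527 and 8657 CPM. Defining markers were low or had no row: Cd79a was at 0.269%, Ms4a1, Cxcl12 and Lepr at 0%, and Cd3e, Pax5 and Cdh5 had no row. The cells thus carried RNA of the stem cell genes of their label. In the lists where 0 members reached 10%, few genes had a row, and only 9.39% of all genes reached it. The median member with a row was found in 0% (stroma) to 2.58% (endothelium) of cells, against 2.21% for all genes.

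Of 22 genes of the G2/M phase, 2 reached 10% in each library, and these were Hmgb2 (22.2%) and Tubb4b (26%). Of 18 S phase genes, 2 did so, and Pcna was highest at 28.1%. Both counts are near the 9.39% of all genes, and the median member was found in 3.18% and 6.19% of cells, against 2.21% for all genes. Mki67, the proliferation antigen, was found in 7.53%, 11.8%, 6.52% and 2.27%. Cells with at least 5 different G2/M genes at 2000 UMIs numbered 8 of 93, 3 of 34, 5 of 92 and 1 of 88. Ccnd2, a D cyclin, was found in 59.9% ± 3.54 and Cdk6, its kinase partner, in 31.8%. The inhibitors Cdkn1b, Cdkn1a and Cdkn1c were found in 17.9%, 14.8% and 12.3%.

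Other gene sets filled in the baseline. Class I antigen presentation was broad, with B2m in 95.7% and H2-D1 in 93.7% of cells, whereas class II was partial, with H2-Aa in 23.5%, H2-Ab1 in 12.8%, H2-Eb1 in 12.6% and Cd74 in 5.75%. Among 24 interferon response genes, Ifitm3 (64%), Ifitm2 (32.2%), Gbp7 (27.8%) and Ifi47 (27.7%) stood highest, and the inducible genes Isg15 (1.63%) and Irf7 (1.83%) were rare. In the HSC aging list, 10 of 26 genes reached 10% in each library, as did 9.39% of all gene symbols. Aldh1a1, a retinaldehyde dehydrogenase, was found in 36.1%, Gda in 29.8% and Clu in 17%. Apoe, an apolipoprotein, was found in 67.2% ± 7.34. Glycolysis was represented by Gapdh (77.7%), Pkm (68.8%) and Ldha (53.5%), and the redox and stress list by Txnip (75.7%), Ftl1 (71.7%) and Gpx1 (59.7%). Of the chaperones, Hsp90ab1 was found in 96.5%, and the stress-inducible Hspa1a in 0.828%. Of 18 genes of the Notch pathway, 15 had a row and 1, the protease gene Adam10 (26.4%), reached 10% in each library. Of 20 imprinted genes, 19 had a row and 1, Gnas (58.2%), did so. Both counts are near the 9.39% of all genes. Their median member with a row was found in 4.23% (Notch) and 4.27% (imprinted) of cells, against 2.21% for all genes. Meg3, a noncoding RNA of the Dlk1 locus, was found in 16%.

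Nuclear noncoding RNA differed more between libraries. Malat1 was at 3365, 2548, 5123 and 5440 CPM, lower in both libraries of plate 5 than in both of plate 6. Gm42418, a gene that overlaps a ribosomal RNA repeat, was at 648, 1596, 3487 and 558 CPM and did not follow the plates. Kcnq1ot1 was found in 63.3% ± 9.87 of cells.

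Which genes varied most between cells was measured by the Fano factor, the variance divided by the mean, which is 1 for pure counting noise. Of 887 genes with a mean of at least 0.25 UMIs at equal depth, 37 (4.17%) had a Fano factor over 1.5 in each of the 4 libraries. Within single libraries the share over 1.5 was 10.6% to 19.2%, and the median gene was at 1.11 to 1.15. The 37 genes were 12 of the mitochondrial genome, 8 of the immediate early list, 3 of the satellite-like list and 14 others. None of the 68 ribosomal protein genes in the test was among them. Outside the limit, Jund (1.49), Gm21962 (1.46) and Gm42418 (1.44) lay close by their lowest library, and inside it mt-Nd1 (1.53), Tubb4b (1.56) and Nr4a2 (1.57).

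**Figure D4:**
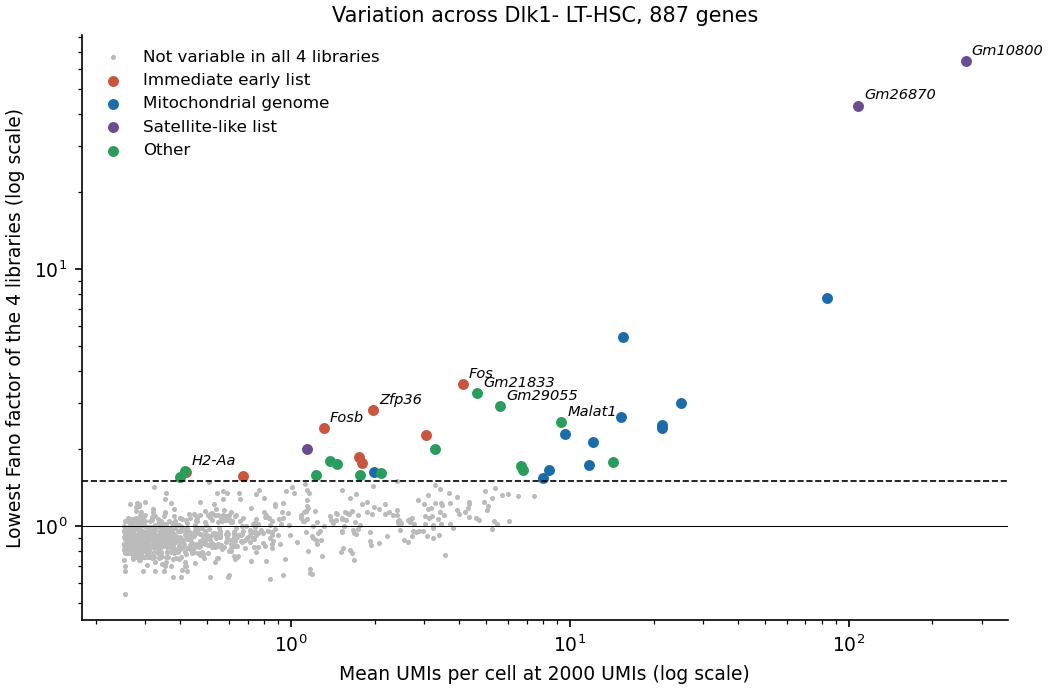
Lowest Fano factor of the 4 libraries (y axis, log scale) against mean UMIs per cell at 2000 UMIs (x axis, log scale) for 887 genes, with the 37 variable genes coloured by class and the limit of 1.5 dashed. Gm10800 and Gm26870 stand at the upper right, and Fos is the highest gene of the immediate early list.

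Gm10800 varied most, with Fano factors of 64.3, 98.1, 85.2 and 78.7, and Gm26870 followed with 43.2, 62.7, 46.6 and 45.7. Among mitochondrial genes, mt-Rnr2 led with 11.5, 7.70, 30.1 and 10.8. Replicate 3 was highest there, and it held the cell with the largest mitochondrial share, 50.9%. Fos, a subunit of the transcription factor AP-1, was the most variable gene of the nuclear genome outside repeats by its lowest library, with 4.96, 3.57, 5.55 and 7.05. No Fos UMI was seen in 34.4%, 20.6%, 40.2% and 30.7% of cells, while the highest cell of each library had 18, 15, 18 and 22 of its 2000 UMIs from Fos. Zfp36, which destabilises AU-rich mRNAs, had Fano factors of 2.83, 4.54, 2.94 and 2.94, Fosb 2.40, 3.49, 2.96 and 2.59, and Jun 2.27, 3.30, 3.09 and 2.30. Egr1, Junb, Btg2 and Nr4a2 completed the immediate early members.

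Among the 37 variable genes, the order changed when variation was set against the level. By the Fano factor minus 1, divided by the mean, in the lowest library, H2-Aa led, followed by Tubb4b and then Btg2. These calls depended on the random thinning, since with another seed their lowest Fano factors were 1.19, 1.05 and 1.41, all under the limit of 1.5. H2-Aa, the alpha chain of a class II molecule, had no UMI in 71%, 79.4%, 72.8% and 83% of cells and up to 4, 3, 6 and 7 UMIs in the highest cell. Tuba1a, an alpha tubulin, had Fano factors of 2.16, 3.71, 3.25 and 1.58. Of the 17 genes of the HSC identity list that were tested, 2 were variable, among them Ifitm1 (1.84, 1.79, 1.6 and 1.99). Hlf, at a mean of 1.17 UMIs, had 0.68 to 1.49. Malat1 had 2.54, 3.51, 4.34 and 2.65.

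Genes that varied together were sought by Pearson's r of log2(UMI + 1) within each library. Of 392941 pairs, 0.0333% had an r over 0.3 in every library, and 34 (0.00865%) had an r under -0.3 in every library. The pairs over 0.3 joined 80 genes into 10 separate sets, of which 4 held 10 or more genes. These were 34 genes, most of them of translation, 13 repeat-linked genes, 11 genes around Fos and 10 mitochondrial genes. All points of an r share the library and the thinned depth.

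The set of 11 genes around Fos included Fos, Fosb, Junb and Jund (AP-1 subunits), Egr1, Nr4a1 and Nr4a2 (transcription factors switched on within minutes of a stimulus), Btg2 and Zfp36 (which act on mRNA decay), and the histone gene H3f3b. Of its 55 possible pairs, 18 were called. By their lowest library, the strongest pairs were Egr1 with Fos, at an r of 0.48, 0.48, 0.46 and 0.53, and Fos with Fosb, at 0.50, 0.44, 0.66 and 0.54. Fos with Zfp36 had 0.40, 0.43, 0.55 and 0.61. Nr4a1, an orphan nuclear receptor, was joined to 6 genes, among them Zfp36 (0.46, 0.55, 0.44 and 0.39) and its relative Nr4a2 (0.46, 0.37, 0.46 and 0.35). Fos had 7 partners, the most of this set. Btg2 was joined only to Jund (0.32, 0.40, 0.40 and 0.35). Jun, although variable, was in no called pair.

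Summed over the 11 genes, the median cell of replicates 1 to 4 had 16, 18, 16 and 20.5 of its 2000 UMIs from this set, the highest cell 51, 61, 69 and 65. The 10th percentile over cells was 2, 3.9, 3 and 3 UMIs, and the 90th percentile 35.8, 40.4, 36 and 48. Each library held both cells almost without these transcripts and cells rich in them. These genes were joined because they varied together in the same cells, so a wide spread of their sum partly follows from that choice. The share of the 30-gene immediate early list had a rho of -0.15 to -0.03 with the UMIs of a cell and of -0.06 to 0.17 with the barcode number. The time from tissue to lysis was not given for single wells, and its part in these values was not tested. Among these 11 genes, 10 pairs were called without the 26 cells of low ribosomal share, 13 without the cells over 40% satellite-like, and 3 at a depth of 1000 UMIs, against 18. With another random thinning there were 14.

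**Figure D5:**
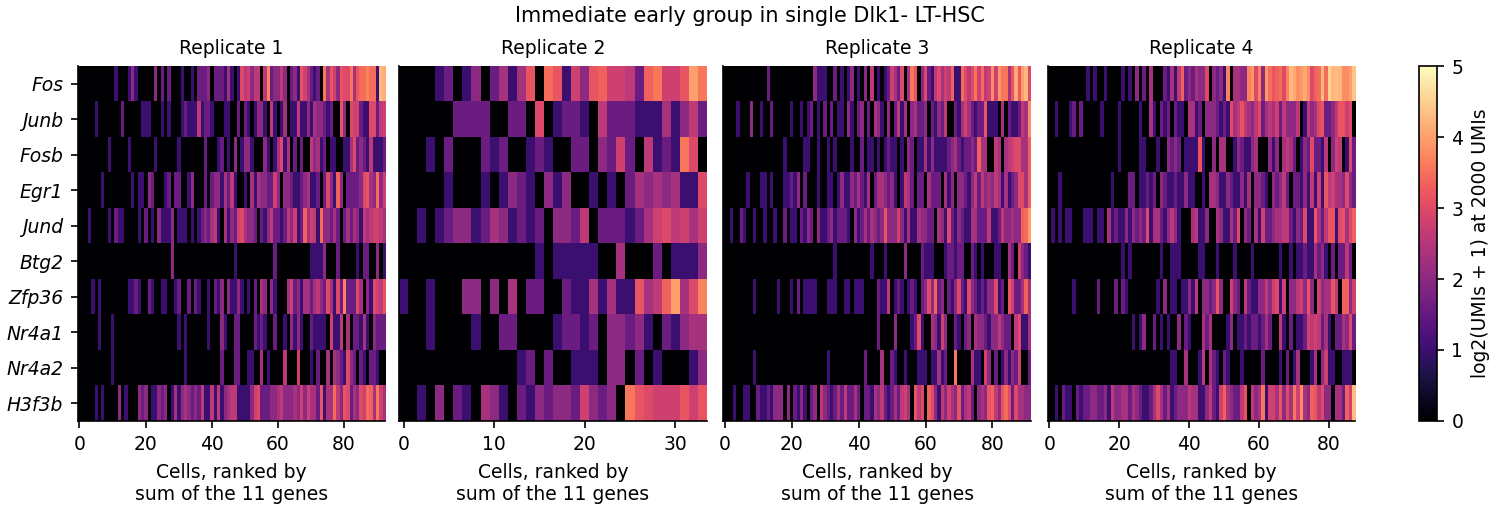
Levels of 10 of the 11 genes around Fos (rows) in each cell (columns, ranked by the sum of the 11 genes within a library) as log2(UMIs + 1) at 2000 UMIs, in 4 panels for replicates 1 to 4. The ranking uses these same genes, so brightening from left to right follows from the order of the cells. The highest sums reach 51, 61, 69 and 65 UMIs.

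Since these genes moved together, the DNA before their starts was searched for the core of the cyclic AMP response element, TGACG, on both strands. RefSeq promoters (GRCm38.p6) matched 9 of the 11 genes, and Egr1 was not among these 9. Within the 250 bases upstream of the start, 7 of the 9 held TGACG (Btg2, Fos, Fosb, H3f3b, Junb, Nr4a1 and Nr4a2), as did 17.9% of 27025 promoters. The full palindrome TGACGTCA, which contains TGACG on both strands, stood in Btg2 alone, as in 1.62% of promoters. The CArG box bound by serum response factor stood within this window in Zfp36 alone of the 9, as in 1.40% of promoters. Bases farther upstream were not searched, and nor was Egr1, so the set is not described for such sites there. The upstream windows of 4 members are shown with each TGACG, or its reverse complement CGTCA, in capitals, 5′ to 3′ in the direction of the gene. They lie at chr12:85473640-85473889 on the plus strand for Fos, chr8:84978749-84978998 on the minus strand for Junb, chr15:101266596-101266845 on the plus strand for Nr4a1, and chr1:134079156-134079405 on the minus strand for Btg2.

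Fos: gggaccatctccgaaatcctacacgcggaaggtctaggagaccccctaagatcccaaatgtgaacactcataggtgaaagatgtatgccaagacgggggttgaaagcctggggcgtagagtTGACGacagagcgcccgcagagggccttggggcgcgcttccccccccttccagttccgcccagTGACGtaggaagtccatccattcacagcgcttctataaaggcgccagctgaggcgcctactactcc

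Junb: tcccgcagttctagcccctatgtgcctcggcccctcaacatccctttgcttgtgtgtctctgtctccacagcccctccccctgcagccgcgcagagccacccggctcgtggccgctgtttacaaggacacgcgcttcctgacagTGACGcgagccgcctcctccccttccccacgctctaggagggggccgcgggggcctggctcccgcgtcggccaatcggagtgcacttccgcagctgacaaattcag

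Nr4a1: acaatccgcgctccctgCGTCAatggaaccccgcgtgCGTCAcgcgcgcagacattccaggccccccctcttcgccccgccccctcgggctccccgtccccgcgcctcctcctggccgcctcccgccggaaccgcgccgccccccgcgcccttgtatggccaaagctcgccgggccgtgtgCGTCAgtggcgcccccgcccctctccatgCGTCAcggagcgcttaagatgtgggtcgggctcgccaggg

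Btg2: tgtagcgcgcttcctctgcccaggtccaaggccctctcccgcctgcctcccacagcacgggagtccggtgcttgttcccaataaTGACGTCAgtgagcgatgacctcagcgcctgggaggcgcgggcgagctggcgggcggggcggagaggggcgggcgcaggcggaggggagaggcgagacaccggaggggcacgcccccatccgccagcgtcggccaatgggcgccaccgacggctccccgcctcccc

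Fos carries the core at 2 places, Junb at 1 and Nr4a1 at 4. A match of letters is a description of the sequence and says nothing on whether a factor was bound in these cells.

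The translation set centred on Eef1a1, which delivers aminoacyl-tRNA to the ribosome and had 19 partners, the most of any gene. Its pairs included Rpl3 (an r of 0.42, 0.51, 0.57 and 0.41) and Rps20 (0.40, 0.65, 0.54 and 0.49). The elongation factor Eef2, Gnb2l1 (RACK1, a scaffold on the small subunit), Tpt1 and B2m (the light chain of class I molecules) were also members. The number of pairs in this set depended on the setting. Among its 34 genes, 59 pairs were called with all cells, 0 without the 26 cells of low ribosomal share, 2 without the 28 cells over 40% satellite-like UMIs, and 7 when the satellite-like list was left out before thinning. With no cells left out, there were 6 by Spearman's rho and 7 at a depth of 1000 UMIs. A limit on the ribosomal share also narrows the range of ribosomal protein genes that belong to the set. Another random thinning gave 39. Over all sets, leaving out replicate 1 gave 351 pairs and leaving out replicate 4 gave 313.

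The repeat-linked set paired Gm10800 with Gm26870 at an r of 0.96, 0.98, 0.96 and 0.95, the highest of all pairs. Shared 31-base words split its members into separate kinds. Gm10800, Gm26870, Gm10715 and Gm10717 shared 13.6% to 59.2% of the words of the smaller transcript with each other. Gm17555, Gm21750, Gm21833, Gm21962 and Gm37158 shared 22.2% to 75% with each other, and 0 words with the first kind. Even so, Gm21833 at chr16:82828382-82829881 varied with Gm10800 at an r of 0.48, 0.73, 0.52 and 0.51. Gm29055, a transcript at chr1:86774819-86776528, shared 0 words with Gm10800 and varied with it at 0.44, 0.65, 0.62 and 0.55. Within each kind, reads may be split between copies, so such pairs are uncertain as pairs of genes. Among the 13 genes, 30 pairs were called with all cells, 9 without the cells over 40% satellite-like and 18 without the 26 cells of low ribosomal share.

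The 34 opposite pairs set a repeat-linked gene against a gene of translation or a copy of one, except 2 pairs with Wdr89. Gm10800 and Rpl3, a protein of the large ribosomal subunit, had an r of -0.52, -0.47, -0.44 and -0.43. Gm26870 and Eef2, the elongation factor of translocation, had -0.42, -0.45, -0.43 and -0.42. Gm10800 took part in 15 of the pairs and Gm26870 in 14. In a thinned cell a rise of one share lowers all others. A gene of the satellite-like list stood in 29 of the 34 pairs, and these could not be called when that list was left out before thinning, where 2 opposite pairs were called in all. Without the cells over 40% satellite-like 1 was called, and without the 26 cells of low ribosomal share 0. Without replicate 1 there were 67, and without replicate 4 there were 84.

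Mitochondrial genes varied together in 18 pairs. The messenger RNAs of the oxidase subunits mt-Co1 and mt-Co2 had an r of 0.55, 0.64, 0.69 and 0.63, and mt-Co1 with mt-Co3 0.56, 0.73, 0.54 and 0.55. Among the 10 genes, 13 pairs were called without the cells of low ribosomal share and 10 without those over 40% satellite-like. Among the remaining pairs, Actb with Ptma had 0.36, 0.39, 0.31 and 0.34. Gapdh with Gm3839 (0.54, 0.47, 0.54 and 0.37) and Ubb with Gm8797 (0.41, 0.33, 0.45 and 0.43) join a gene to a copy of it, since 55.6% and 85.7% of the 31-base words of Gm3839 and Gm8797 stood in Gapdh and Ubb. Their reads cannot be told apart with certainty.

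No such set of stem cell genes was called at this depth. Of the pairs among the 17 HSC identity genes with enough UMIs, 0 passed the limit in all libraries. Over all pairs 0.0333% passed, so 0 among these few pairs is near that share and marks no trait of these genes. The pair with the highest lowest value was Mllt3 with Ifitm1, at 0.28, 0.43, 0.09 and 0.13. Tuba1a with Tubb4b, both tubulins, had 0.24, 0.20, 0.33 and 0.18. Among class II genes, only H2-Aa, at a mean of 0.417 UMIs per cell, reached the required minimum of 0.25. H2-Ab1, H2-Eb1 and Cd74 had means of 0.189, 0.134 and 0.0586. The 6 pairs among these class II genes were therefore outside the pairs screened and could not be called. The r of H2-Ab1 with its chaperone Cd74, computed apart, was 0.53, 0.16, 0.12 and 0.19. Its lowest value was the highest of the 6. Pairs of genes at means of 1.01 and 0.67 UMIs per cell were called elsewhere, as Nr4a1 with Nr4a2. A pair that was not called is not shown to be independent.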

How the data were processed

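The data were single-cell libraries of Dlk1- LT-HSC, 1 table each. The authors deposited estimated transcript counts per gene and cell barcode, in which UMI counts are corrected for collisions, not scaled for depth. Per the submitters' processing notes, BWA 0.6.2-r126 and the build mm10 were used. Inverting the correction, with 4 to the power 6 possible UMIs, gave whole numbers within 3.64e-12 (tolerance 1e-06), and these UMIs were analysed. No row named a spike-in, and 96.0% of 16434 gene symbols matched GENCODE release M21 of GRCm38.

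Barcodes from 97 on with at least 1000 transcripts were kept (321 cells, 412207 UMIs per library on average). No doublet caller was run. Cells were thinned to 2000 UMIs with a fixed seed, and 14 shallower cells were left out of such values. CPM are per 1000000 UMIs of the kept cells of a library. Variable genes and pairs had to pass in each of the 4 libraries, which are the replicates. No test between groups was made, so no p-value is given, and shares carry 95% Wilson intervals for counting error only.

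The genes named were the 20 of highest mean share, members of the gene lists, and the variable genes and pairs of highest lowest-library value. Genes just outside a limit, H2-Ab1 with Cd74, Tuba1a with Tubb4b, Gapdh and Ubb with their copies, the 5-gene limit for cycling cells and the cell tail under 5% ribosomal protein were chosen after their values were seen. Some single genes are not reported here. Members and lists were chosen with earlier results of these data known. The scripts were tested on simulated data. Python 3.11.15, numpy 2.4.6, pandas 2.3.3 and scipy 1.17.1 were used.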

Additional observations from a re-analysis of the deposited data

Results flagged for a closer look

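Of 64 values compared over the 4 libraries, 5 had a library far from the other 3 by Dixon's test at the 95% level, which chance gives in about 1 of 20. All 5 singled out replicate 4. The 20 most abundant genes held 25.3% of its UMIs, below 34.7% to 36.4% in the others. Eef1a1 took 0.874%, above 0.625% to 0.655%. The HSC identity list summed to 8657 CPM, against 6527 to 6717. The niche and cytokine receptors summed to 1955 CPM, against 1597 to 1637, and the HSC aging list to 2850 CPM, against 1773 to 1884. The satellite-like share of replicate 4 was 10.9%, against 20.8% to 23.6%. Per 1000000 UMIs outside the satellite-like list, replicate 4 remained highest by less for HSC identity (9717 against 8239 to 8788) and for the receptors (2194 against 2016 to 2136), and was at 3199 against 2313 to 2465 for HSC aging.

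Barcodes not used for sorted cells carried UMIs. In the 4 tables, 10 of the 96 barcodes below 97 held 25978 UMIs, with 5613 to 7411 per library, of 40071 UMIs on all 96. The 10 were picked after their values were seen. They held 18 UMIs of Dlk1 and 2780 of Hbb-bs, and entered no value of the cells.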

How the results depend on the processing

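No paired analysis was possible because 1 group was described and no groups were compared. Pairs are given as a percent of the pairs computed, since the genes that reach the mean change with the setting. Leaving out each library in turn, 0.0396% to 0.0899% of pairs varied together, against 0.0333%, and 0.00921% to 0.0241% oppositely, against 0.00865%, since fewer libraries had to pass. Without replicate 1 the counts were 351 and 67, and without replicate 4 they were 313 and 84. Shares of UMIs, genes per cell and the Procr share moved by less than the spread between libraries in those fits, and the count of variable genes by less than 1.5 times. With the satellite-like list left out, the top 20 genes held 17.6% of UMIs, the median cell had 1145 genes and 2 opposite pairs (0.000293%) were called. At 1000 UMIs the values were 568 genes, 11.2% of cells with Procr, 16 variable genes, and 0.0534% and 0.0227% of pairs (33 and 14). At 3000 UMIs they were 1349 genes, 29.4% with Procr and 0.0164% of pairs together (204). All UMIs without thinning gave 1915.5 genes and 39.3% with Procr. Scaled to 2000, they gave 22 variable genes, and 0.86% and 0.0684% of pairs. A Fano factor over 2 left 17 genes. Spearman's rho gave 0.0137% and 0.00305% of pairs, and an r over 0.4 gave 0.00865% and 0.000763%. Added after the data were seen, leaving out cells over 40% satellite-like gave 0.00918% and 0.00023% of pairs (40 and 1), and leaving out cells under 5% ribosomal protein gave 0.011% and 0% (46 and 0). The sign changed for the lowest r of Eef1a1 with Rps23 (-0.0177, without cells over 40% satellite-like), and for the highest r of Eef2 with Gm10800 (0.00855, without cells under 5% ribosomal protein). The cause was not tested. Of 34 pairs named by rule, 8 passed under every setting that gave a value, among them Fos with Fosb and Fos with Zfp36. Of 30 variable genes, 13 did. Another seed gave 36 variable genes, 0.0378% and 0.0069% of pairs, and 39 pairs in the translation set, against 59. Depth limits all shares of cells and all r of genes with few UMIs.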
